A study of Mus musculus with 48 samples.

Results

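The 10 genes described here are a short list of the disease-associated microglia (DAM) signature, namely Trem2, Tyrobp, Apoe, Cst7, Cd68, Lpl, Itgax, Clec7a, Axl and Spp1. They were chosen by symbol, with earlier results of these data known, from bulk RNA-sequencing (RNA-seq) of the mouse substantia nigra (SN), and all 10 passed the filter on low counts. Of these, 9 are among the 19601 protein-coding genes of the batch-corrected tables. Clec7a is annotated in GENCODE vM21 as a polymorphic pseudogene, and its values come from the tables before correction, which hold 55385 genes. The study asked whether breathing 11% O2 alters the response of the SN to α-synuclein (α-syn) preformed fibrils (PFFs). Male C57BL/6J mice aged 121 days received α-syn PFF or α-syn monomer, the control protein, in the right striatum only. They then breathed 21% O2 (normoxia) or 11% O2 (hypoxia), and the whole SN, not its pars compacta alone, was collected 90 to 98 days later. The study's methods and the series' own description differ on when 11% O2 began, so its duration is not stated here. The labels give 12 mice per group, and the authors set 6 of the 48 aside after a principal component analysis. What follows uses 11 monomer and 12 PFF mice at 21% O2, and 9 monomer and 10 PFF mice at 11% O2.

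Microglia are the resident macrophages of the brain. Around dying cells, lipid debris or protein aggregates they can shift from a homeostatic state, marked by genes such as P2ry12 and Tmem119, to the DAM state, in which genes of phagocytosis, lysosomes and lipid handling are raised. TREM2, a receptor for lipids and apolipoproteins, signals through the adaptor TYROBP (DAP12) and is needed for the full shift. Apoe, Axl and Spp1 are not confined to microglia, since astrocytes express Apoe and Axl and some neurons express Spp1.

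All 18 genes of a homeostatic microglia list, P2ry12, Tmem119 and Cx3cr1 among them, were detected, and no gene of that list had a median count of 0. Total counts on genes ran from 12902996 to 17120921 in the 42 mice analysed. The labels sort the mice into 3 batches, which the study associates with the date of euthanasia. By the labels each batch also has its own dates of birth and injection. In batch 3, monomer replicate 11 at 11% O2 was harvested later than the rest and alone makes up the 98-day end of the range. The groups are unevenly spread over the batches. No monomer mouse at 21% O2 analysed here is in batch 3, and no monomer mouse at 11% O2 analysed here is in batch 2. Each library is bulk tissue, so fewer microglia and less RNA per microglia cannot be told apart.

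The sequences just upstream of and across the start of 4 members are shown because these genes varied together between mice (Pearson's r from 0.68 to 0.83 for each pair). This is not particular to them, since Trem2 varied as closely with Cd68 (r 0.86), Itgax (0.77) and Clec7a (0.77). They are RefSeq promoters of 300 bases on GRCm38.p6, written 5′ to 3′ on the strand of the gene, and 8 of the 10 members had an entry. Capitals mark GAGGAA or its reverse complement TTCCTC, the core bound by PU.1, the factor that sets macrophage identity.
Clec7a (chr6:129472730-129473029, minus strand): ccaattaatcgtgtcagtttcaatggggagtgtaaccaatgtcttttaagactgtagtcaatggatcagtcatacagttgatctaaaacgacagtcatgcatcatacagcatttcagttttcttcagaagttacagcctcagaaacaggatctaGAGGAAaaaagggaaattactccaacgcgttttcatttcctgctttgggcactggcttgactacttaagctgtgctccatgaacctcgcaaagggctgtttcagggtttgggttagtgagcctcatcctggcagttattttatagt
Cd68 (chr11:69666121-69666420, minus strand): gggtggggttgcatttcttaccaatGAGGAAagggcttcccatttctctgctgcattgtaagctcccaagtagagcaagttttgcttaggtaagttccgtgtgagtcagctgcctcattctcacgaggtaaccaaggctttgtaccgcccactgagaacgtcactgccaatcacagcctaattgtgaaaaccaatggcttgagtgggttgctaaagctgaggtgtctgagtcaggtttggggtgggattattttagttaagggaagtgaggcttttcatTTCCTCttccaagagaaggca
Itgax (chr7:128129300-128129599, plus strand): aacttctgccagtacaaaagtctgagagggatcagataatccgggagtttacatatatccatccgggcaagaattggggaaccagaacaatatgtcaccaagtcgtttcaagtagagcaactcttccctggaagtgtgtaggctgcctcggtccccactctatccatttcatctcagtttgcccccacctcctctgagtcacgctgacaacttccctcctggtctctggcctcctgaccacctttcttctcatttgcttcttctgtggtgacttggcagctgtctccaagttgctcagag
Cst7 (chr2:150570165-150570464, plus strand): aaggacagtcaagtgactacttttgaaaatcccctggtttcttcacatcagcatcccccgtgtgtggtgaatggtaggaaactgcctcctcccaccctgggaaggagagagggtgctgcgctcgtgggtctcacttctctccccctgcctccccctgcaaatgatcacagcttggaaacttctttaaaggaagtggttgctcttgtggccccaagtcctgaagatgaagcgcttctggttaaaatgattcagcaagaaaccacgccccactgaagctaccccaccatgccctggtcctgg

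The GAGGAA core, searched on both strands, occurs in 28.3% of all 32851 promoters of this length. It lay once in the Clec7a promoter shown, once in a second Clec7a entry that overlaps it, and 2 times in that of Cd68, whereas those of Itgax and Cst7 held none. Trem2 and Axl each had 1 match, the 3 entries of Apoe held 3 in all, and the 2 of Spp1 held 1. Neither ACGTG, the core bound by hypoxia-inducible factors (19.6% of all promoters), nor CACGTG, an E-box that contains it (7.15%), occurred in the promoters of the 8 members. A match is a description of letters and was not tested as a binding site.

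The members spanned a wide range of levels. In TPM, a level scaled to transcript length and to library size, Apoe, the main lipid carrier of the brain, had a median of 4252 TPM over the 42 mice. Spp1, which encodes the secreted phosphoprotein osteopontin, followed at 194 TPM and Tyrobp at 132 TPM. Axl, a receptor tyrosine kinase that binds apoptotic cells through ligands such as Gas6, stood at 65.1 TPM, Cd68, a lysosomal glycoprotein of phagocytes, at 40.4 TPM, and Trem2 at 33.7 TPM. The other 4 members were low. Clec7a, which encodes Dectin-1, a receptor for β-glucans, had a median of 4.42 TPM before correction. Cst7 (cystatin F, an inhibitor of lysosomal cysteine proteases) reached 2.49 TPM, Lpl (lipoprotein lipase, which releases fatty acids from triglycerides) 2.25 TPM, and Itgax (the integrin CD11c) 1.78 TPM. Cst7 rested on a median of only 9 counts per mouse, Itgax on 34 and Clec7a on 47. In the order of levels, the ranges of Spp1 and Tyrobp over the mice overlapped, as did those of Axl, Cd68 and Trem2 and those of Clec7a, Cst7, Lpl and Itgax.

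**Figure D1:**
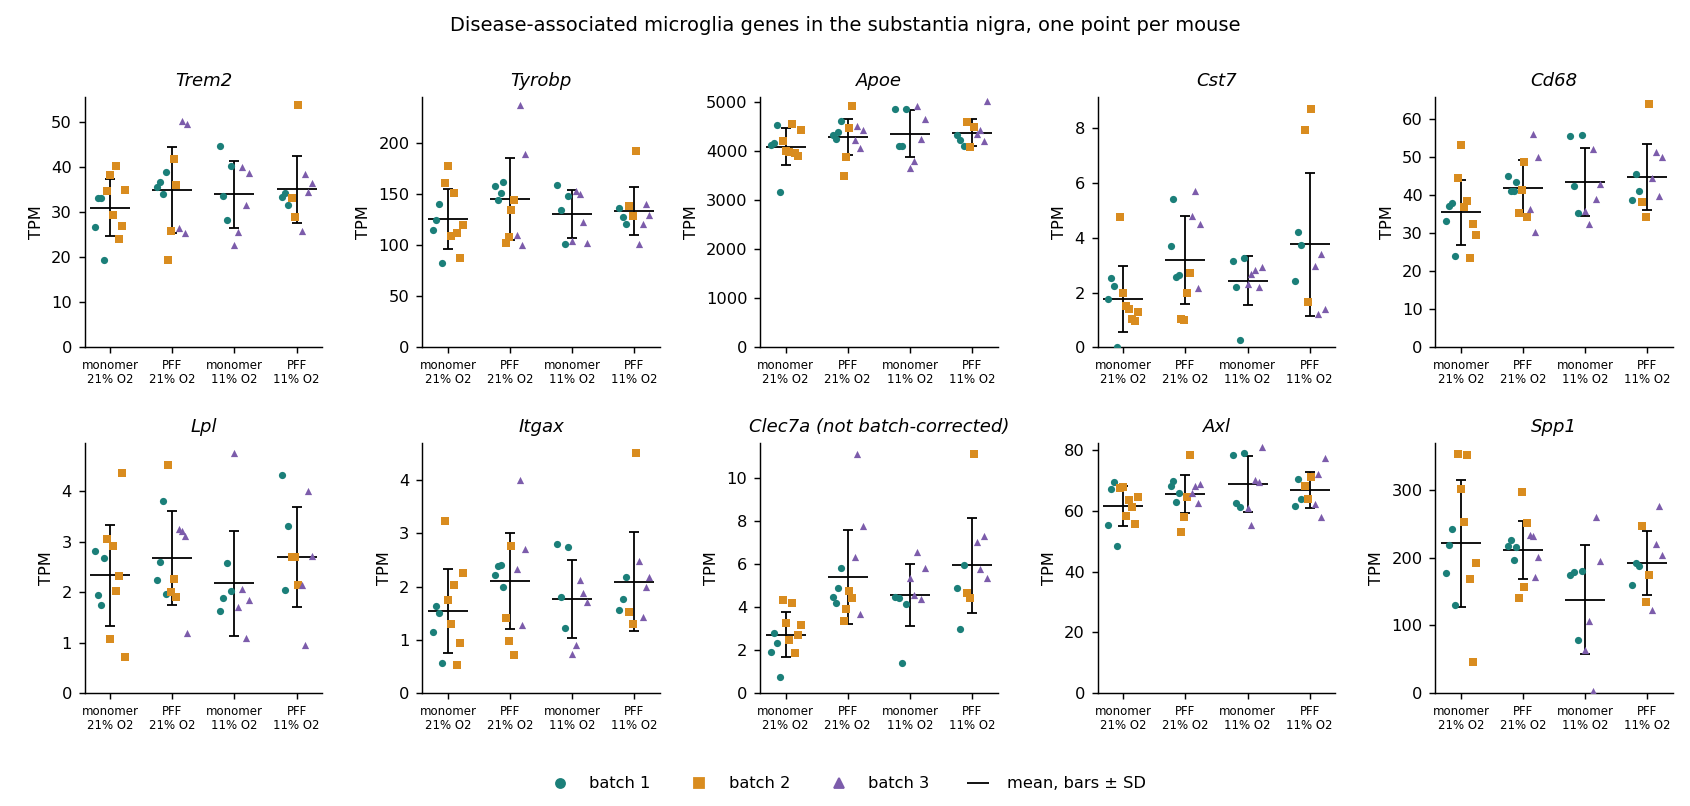
Level in TPM of each of the 10 genes (vertical axis, linear from 0) in the 4 groups, 1 point per mouse, with point shape for batch, a line at the mean and bars of ± 1 SD. The groups overlap in every panel, and the 12 Clec7a points of PFF mice at 21% O2 all lie above the monomer median of 2.69 TPM. Clec7a is not corrected for batch, and batch 3 has no monomer mouse at 21% O2.

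The first question was what PFF did at 21% O2. Clec7a was higher in PFF mice, and no other member passed the test. In monomer mice Clec7a had a lowest, median and highest level of 0.735, 2.69 and 4.33 TPM, against 3.35, 4.61 and 11.1 TPM in PFF mice. All 12 PFF mice lay above the monomer median and 8 lay above the highest monomer mouse, and the other 4 fell within the monomer range. The mean was 2.71 ± 1.04 TPM (SD, n = 11) in monomer mice and 5.39 ± 2.18 TPM (SD, n = 12) in PFF mice. These levels are not corrected for batch, and 4 of the 12 PFF mice are from batch 3, which has no monomer mouse at 21% O2. The log2 fold change was 0.89 (SE 0.222, 95% interval 0.45 to 1.34, adjusted p = 0.00916) by the quasi-likelihood test of edgeR with batch as a covariate, adjusted over 14794 genes after Benjamini and Hochberg. In that fit 3.26% of all genes were called, which means that the adjusted p was under 0.05 and the log2 fold change over 0.25 in size. The call was lost when the fit held only the groups compared (log2 fold change 0.77, adjusted p = 0.0604).

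Clec7a is on chr6:129461591-129472779 (GRCm38, minus strand), and its level also moved with batch. In batch 1, it averaged 1.94 ± 0.880 TPM (SD, n = 4) in monomer mice and 4.84 ± 0.710 TPM (SD, n = 4) in PFF mice at 21% O2. The difference was 1.37 in log2 CPM (counts scaled to library size), with an exact permutation p of 0.0286, two-sided, the smallest that 4 against 4 mice allow. In batch 2 the means were 3.14 ± 0.899 TPM (SD, n = 7) and 4.11 ± 0.613 TPM (SD, n = 4), a smaller difference of 0.41 in log2 CPM (exact permutation p = 0.0970). Batch 3 had no monomer mouse at 21% O2 and its 4 PFF mice had the highest mean, 7.21 ± 3.09 TPM (SD). PFF mice were thus higher in each of the batches that could be compared. With the mean log2 CPM of the homeostatic microglia list subtracted, the difference of Clec7a was 0.99 in batch 1 (exact permutation p = 0.0286) and 0.41 in batch 2 (exact permutation p = 0.0152). None of the 16 such tests within batches passed after adjustment (smallest adjusted p 0.114).

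**Figure D2:**
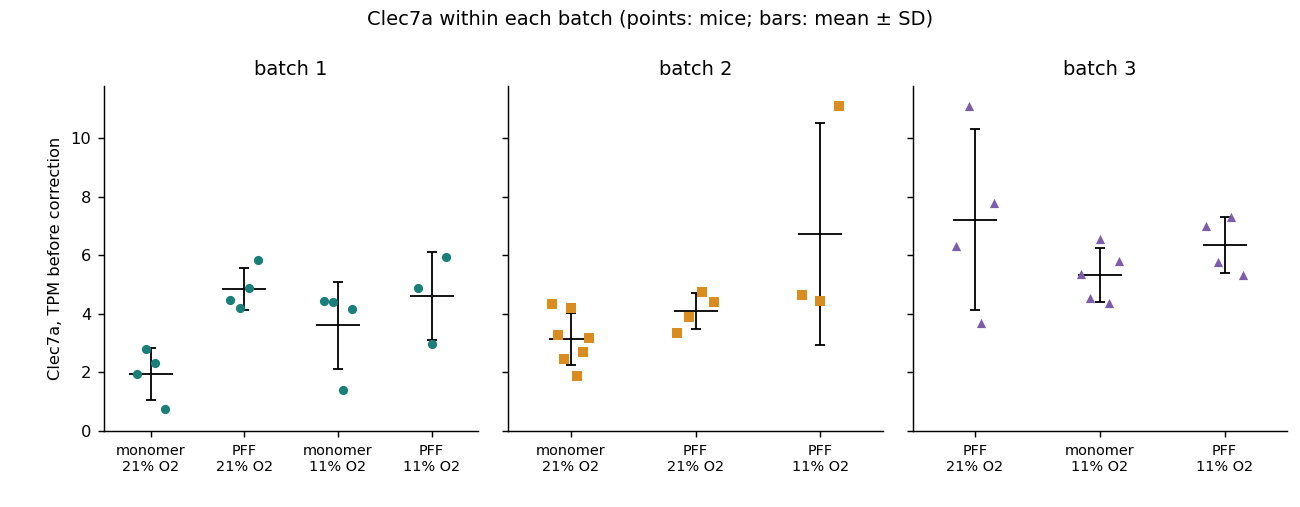
Clec7a in TPM before correction (vertical axis, linear from 0) for each mouse within batches 1, 2 and 3, by group, with a line at the mean and bars of ± 1 SD. In batch 1, the PFF mice at 21% O2 do not overlap the monomer mice at 21% O2 (means 4.84 and 1.94 TPM), whereas in batch 2 they overlap (4.11 and 3.14 TPM).

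Among the remaining 9 members, 0 were called at 21% O2 by edgeR, against 3.7% of the 14839 genes tested. At an unadjusted p under 0.05 there were 2 (Cst7 and Cd68), while 22.4% of all genes were under it. In counts before correction with batch as a covariate there were 4 of the 9 (Tyrobp and Itgax besides), beside 23.4% of all genes, and again 0 were called. DESeq2 and limma also called 0 of the 9, here and in the other comparisons. By value, 8 of the 9 were higher in PFF mice, with a median log2 fold change of 0.21 beside a median of 0.00085 over all genes, of which 50.4% were higher.

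Of the receptor pair, Trem2 (chr17:48346401-48354147, plus strand) had a lowest, median and highest level of 19.3, 33.0 and 40.2 TPM in monomer mice and 19.4, 35.8 and 50.2 TPM in PFF mice at 21% O2. Trem2 thus differed in log2 level by 0.19 (SE 0.135, adjusted p = 0.414). Tyrobp (chr7:30413760-30417585, plus strand), its signalling partner, ran from 82.6 to 177.6 TPM around a median of 120 TPM in monomer mice, and from 100.1 to 237 TPM around 144 TPM in PFF mice. The groups differed in log2 level by 0.22 (SE 0.129, adjusted p = 0.305), and by 0.28 in counts before correction with batch as a covariate (95% interval 0.03 to 0.54, adjusted p = 0.160). For each gene 8 of 12 PFF mice exceeded the monomer median, and the ranges overlapped widely.

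Of the other surface receptors, neither Itgax nor Axl passed the test. Itgax (chr7:128129547-128150657, plus strand) averaged 1.54 ± 0.788 TPM (SD, n = 11) in monomer mice, from 0.526 to 3.24 TPM, and 2.10 ± 0.903 TPM (SD, n = 12) in PFF mice, from 0.724 to 4.00 TPM. The log2 fold change of 0.46 had a 95% interval from −0.06 to 0.98 (adjusted p = 0.292). In counts before correction with batch as a covariate it was 0.60, with an interval above 0 (0.06 to 1.15) and an adjusted p of 0.165. Axl (chr7:25757273-25788705, minus strand) was at 48.4, 63.4 and 69.6 TPM against 53.0, 65.9 and 78.2 TPM (lowest, median, highest). Its log2 fold change of 0.10 (SE 0.0645, adjusted p = 0.349) was within the spread of the mice.

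Both lysosomal members had intervals above 0 without passing the adjusted test. Cst7 (chr2:150570415-150578944, plus strand) was at 0, 1.53 and 4.76 TPM in monomer mice (lowest, median, highest) and at 1.00, 2.68 and 5.70 TPM in PFF mice. Of the PFF mice, 10 of 12 lay above the monomer median and 3 above the highest monomer mouse. The log2 fold change was 0.83 (95% interval 0.12 to 1.55, unadjusted p = 0.0231, adjusted p = 0.147). Cd68 (chr11:69664213-69666153, minus strand) went from 23.5, 36.7 and 53.1 TPM to 30.3, 41.2 and 55.9 TPM, a log2 fold change of 0.26 (95% interval 0.02 to 0.50, unadjusted p = 0.0363, adjusted p = 0.187). In counts before correction with no batch term, Cst7 did pass (log2 fold change 1.04, adjusted p = 0.0407).

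The lipid genes and Spp1 did not pass the test either. Apoe (chr7:19696109-19699188, minus strand) had medians of 4126 TPM in monomer and 4354 TPM in PFF mice at 21% O2, with ranges of 3163 to 4551 TPM and 3499 to 4928 TPM. On the log2 scale Apoe differed by 0.087 (SE 0.0565, adjusted p = 0.368). Lpl (chr8:68880491-68907448, plus strand) had medians of 2.32 and 2.43 TPM within ranges of 0.713 to 4.36 TPM and 1.196 to 4.53 TPM, and differed in log2 level by 0.21 (SE 0.231, adjusted p = 0.627). Spp1 (chr5:104435118-104441050, plus strand) had medians of 218.4 and 217.04 TPM, and the monomer range of 46.3 to 353 TPM contained every PFF mouse (141 to 298 TPM). The log2 fold change was −0.05 (95% interval −0.60 to 0.50, adjusted p = 0.949), and it was above 0 in counts before correction (0.10).

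**Figure D3:**
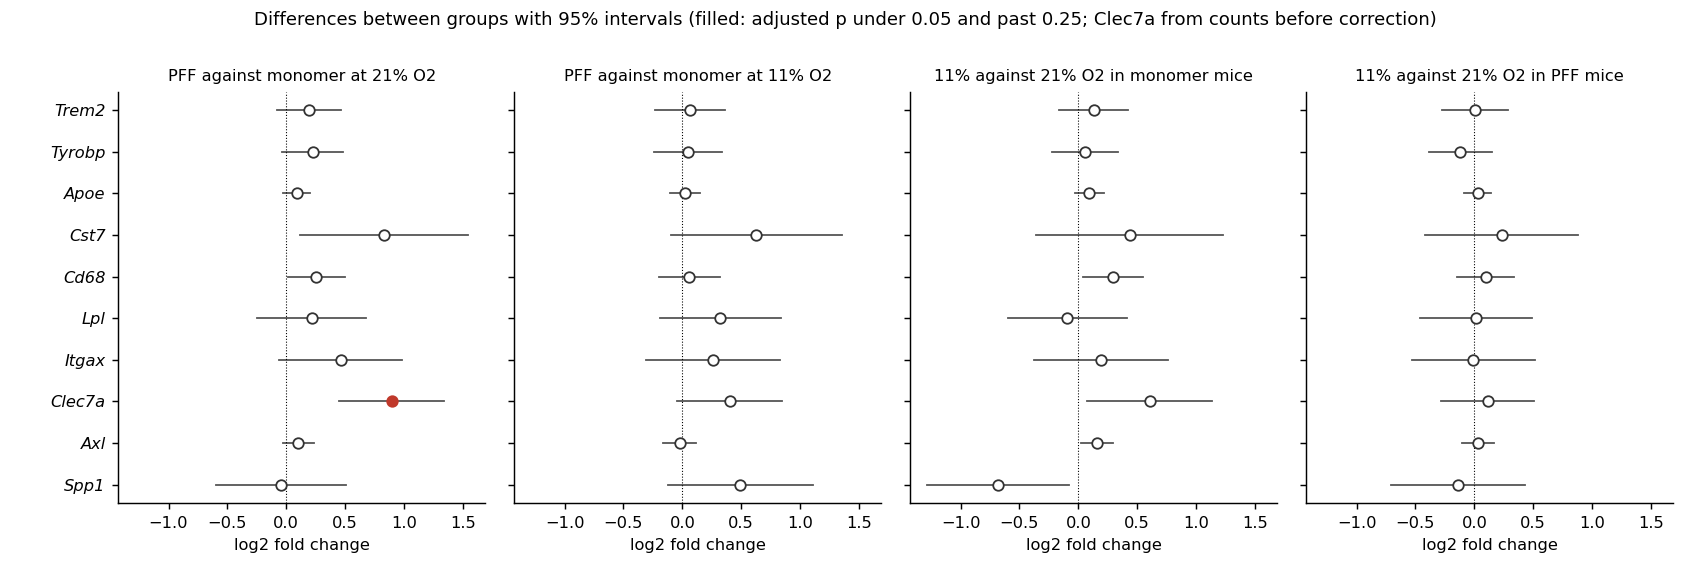
Log2 fold change (horizontal axis) with its 95% interval for each of the 10 genes in 4 comparisons of groups; filled points passed the test. Clec7a for PFF against monomer at 21% O2, at 0.89, is the only filled point.

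Other genes of the same programme were examined from fixed lists. Of 19 further DAM genes that could be tested, 1 was called in PFF mice at 21% O2, a share near the 3.7% of all genes. This was Ccl3, a chemokine of activated microglia, which was higher by 1.01 in log2 level (SE 0.234, adjusted p = 0.00546), on a median of 12.5 counts per mouse. In all, 17 of the 19 were higher (median 0.14 in log2 fold change). Among 25 signalling, lipid and ligand partners of the members, such as Syk, Gas6, Abca1 and Itgb2, 0 were called and 15 were higher (median 0.04). Of the 18 homeostatic microglia genes 0 were called and 15 were higher (median 0.13). Their summed level ran from 1803 to 3358 TPM around a median of 2601 TPM in monomer mice and from 1899 to 3715 TPM around 2892 TPM in PFF mice. Of the 8 tested markers of border macrophages, which also express Cd68 and Tyrobp, 3 were higher and 5 lower, and their summed level had medians of 24.5 and 26.1 TPM. The 12 blood leukocyte markers, of which only 3 could be tested, summed to medians of 27.1 and 28.0 TPM. Flt3 alone averaged 20.5 TPM over the mice analysed, so this sum rests mainly on 1 gene. Several lists of other cell types leaned upwards as well, whereas 3 of 10 neuron markers and 3 of 7 of oligodendrocyte precursors were higher. Of the astrocyte markers 9 of 10 were higher (median 0.06), and so were 9 of 10 oligodendrocyte markers (median 0.05, with the myelin gene Opalin called at 0.60, adjusted p = 0.000259). All 7 fibroblast markers (median 0.17), all 5 red cell genes (median 0.30) and 4 of 5 choroid plexus markers (median 0.52) were higher with 0 called, and 1 of 8 endothelial markers was called, the transporter Slco1a4 at 0.45 (adjusted p = 0.0416). The part of these lists in the members' differences was not tested.

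At 11% O2, no member differed past the test between PFF and monomer mice. By edgeR, 0 of the 9 members and 0 of all 14839 genes (0%) were called. At an unadjusted p under 0.05 there were 0 members and 581 genes, 3.92% of those tested. The members ranged in log2 fold change from −0.02 for Axl to 0.63 for Cst7, with a median of 0.06. In counts before correction with batch as a covariate, Trem2 (−0.03), Tyrobp (−0.0023) and Cd68 (−0.0079) were on the other side of 0, and each of the 9 changed sign in at least 1 alternative. Cst7 was at 0.271, 2.68 and 3.27 TPM in monomer mice (lowest, median, highest) and at 1.204, 3.18 and 8.72 TPM in PFF mice, and 5 of the 10 PFF mice exceeded the highest monomer mouse. Its interval, −0.10 to 1.36, included 0. Clec7a was at 1.40, 4.45 and 6.57 TPM in monomer and at 2.97, 5.54 and 11.1 TPM in PFF mice. Its log2 fold change was 0.40 (95% interval −0.04 to 0.85), with 0 of 14794 genes called in that fit. Spp1 had a log2 fold change of 0.49 (95% interval −0.12 to 1.11), for which the monomer group matters as described with the O2 comparison.

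The difference between the PFF effects at the 2 O2 levels was tested as an interaction. By edgeR, 0 of the 9 members were called, against 2.14% of all genes, and at an unadjusted p under 0.05 there were 0 members and 15.4% of all genes. For Clec7a the interaction was −0.49 on the log2 scale (95% interval −1.15 to 0.17, adjusted p = 0.541). A smaller PFF effect on Clec7a at 11% O2 was therefore not shown. For Cst7 it was −0.20 and for Spp1 0.54 (95% interval −0.28 to 1.37). By value, 7 of the 9 members were below 0, with a median of −0.13, while 49.7% of all genes were above 0. That median was −0.29 in counts before correction with batch as a covariate, where again 0 were called. Other lists leaned the same way, with 16 of 18 homeostatic microglia genes, 9 of 10 astrocyte markers and all 10 oligodendrocyte markers (2 called) below 0. Of the neuron markers 8 of 10 were above 0. Averaged over both O2 levels, PFF mice were higher for all 9 members (median log2 fold change 0.16), of which 0 were called and 1 had an unadjusted p under 0.05, against 0.135% called and 11.2% under that p among all genes. Axl was the smallest at 0.04 and Cst7 the largest at 0.73 (SE 0.253, adjusted p = 0.236). Clec7a passed with 0.65 (SE 0.149, adjusted p = 0.0369), where 0.149% of genes were called, and this call was lost in 15 of 42 fits that left out 1 mouse each, with no batch term (adjusted p = 0.0521) and in counts from ComBat-seq run again with Clec7a (adjusted p = 0.129).

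The second question was what 11% O2 did on its own, in mice given monomer. Here 0 of the 9 members were called by edgeR, against 7.23% of all genes, the largest share among the 7 comparisons. At an unadjusted p under 0.05 there were 3 members (Cd68, Axl and Spp1), beside 27.7% of all genes. Cd68 had a median of 36.7 TPM at 21% O2 and 42.4 TPM at 11% O2 (32.3 to 55.8 TPM), with a log2 fold change of 0.29 (95% interval 0.04 to 0.55, adjusted p = 0.119). Axl had medians of 63.4 and 69.5 TPM, and 4 of 9 mice at 11% O2 (55.4 to 80.8 TPM) exceeded the highest at 21% O2. The log2 fold change of Axl was 0.16 (95% interval 0.02 to 0.30, adjusted p = 0.121). Clec7a went from a median of 2.69 to 4.45 TPM, with 7 of 9 mice above the highest at 21% O2. Its log2 fold change was 0.60 (95% interval 0.08 to 1.13, adjusted p = 0.161, 4.57% of genes called in that fit), and these groups share only batch 1, in which the difference of 0.84 in log2 CPM had an exact permutation p of 0.200. The 5 monomer mice at 11% O2 in batch 3 had a mean of 5.32 ± 0.910 TPM (SD), against 3.60 ± 1.48 TPM (SD, n = 4) in batch 1.

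For the others the log2 fold changes were 0.13 for Trem2, 0.06 for Tyrobp, 0.093 for Apoe, 0.44 for Cst7, 0.19 for Itgax and −0.09 for Lpl, none past the test (smallest adjusted p among the 9 members 0.119). Their median levels at 11% O2 in monomer mice were 33.4 TPM for Trem2, 134 TPM for Tyrobp, 4242 TPM for Apoe, 2.68 TPM for Cst7, 1.79 TPM for Itgax and 1.88 TPM for Lpl. Every one of these groups overlapped its counterpart at 21% O2.

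Spp1 was the member with the largest decrease by value. At 11% O2 monomer mice had 2.77, 174.8 and 261 TPM (lowest, median, highest) against 46.3, 218.4 and 353 TPM at 21% O2, and 1 of 9 mice lay above the median at 21% O2. The log2 fold change was −0.68 (SE 0.300, 95% interval −1.28 to −0.08, adjusted p = 0.127). This value depends on the batch correction. Monomer replicate 7 at 11% O2 had an Spp1 level of 30.5 TPM before correction and 2.77 TPM after it, and its corrected count of 18 was 0.0837 of the count before, and monomer replicate 11 at 21% O2 went from 817 to 319 counts. Corrections beyond 1.5-fold occurred in 5 mice for Itgax, 4 for Cst7, 3 for Lpl, 2 for Spp1 and 1 for Trem2, and in 0 for Apoe, Axl, Cd68 and Tyrobp. Without replicate 7 the log2 fold change was −0.51, and in counts before correction with batch as a covariate it was −0.38.

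**Figure D4:**
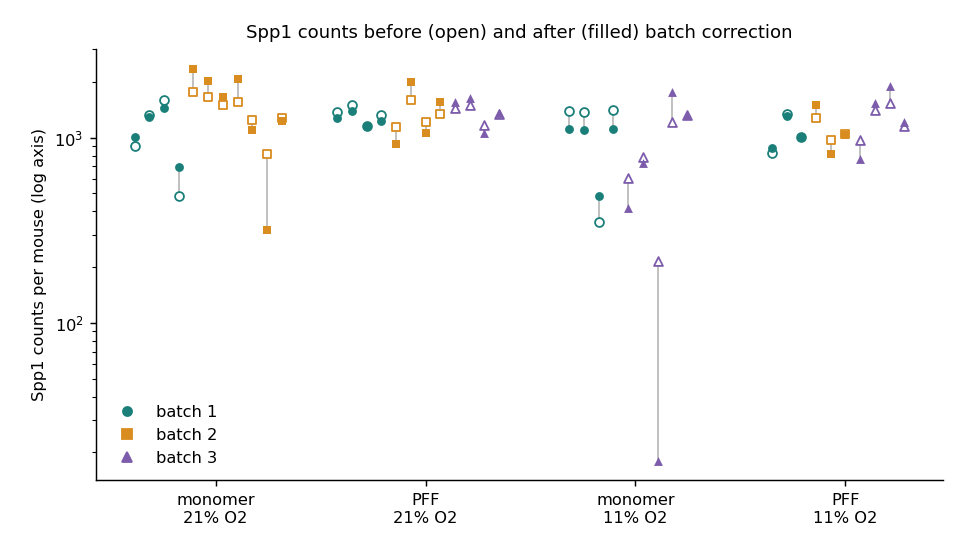
Spp1 counts per mouse (vertical axis, logarithmic) before correction (open symbols) and after it (filled symbols), joined for each mouse and grouped by injection and O2, with symbol shape for batch. Monomer replicate 7 at 11% O2 falls to 18 counts, 0.0837 of its count before correction.

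Markers of blood vessels, red cells and oligodendrocytes were called in this comparison. All 6 pericyte markers, 7 of 8 endothelial markers and all 5 red cell genes were called higher at 11% O2 in monomer mice, with medians of 0.57, 0.52 and 1.32 on the log2 scale. Among oligodendrocyte markers 3 of 10 were called higher, namely Opalin (0.71), Mog (0.32) and Cnp (0.26), which serve myelin. The astrocyte marker Agt (0.30) and Olig1 (0.29), from the list of oligodendrocyte precursors, were each the 1 called gene of their list. Of the homeostatic microglia genes, 17 of 18 were higher (median 0.19) and 1 was called, Olfml3 at 0.41 (SE 0.121, adjusted p = 0.0201), a share below the 7.23% of all genes. The summed level of these microglia genes had a median of 2601 TPM at 21% O2 and 2832 TPM at 11% O2. Among the further DAM genes 15 of 19 were higher and 0 called (median 0.14), and among the partners 21 of 25 were higher and 0 called (median 0.11). The part of these lists in the members' values was not tested.

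In PFF mice, no member differed past the test between 11% and 21% O2. By edgeR 0 of the 9 were called, against 0.58% of all genes, and 0 had an unadjusted p under 0.05, against 10.7% of all genes. The log2 fold changes ran from −0.14 for Spp1 to 0.23 for Cst7 (median 0.01), with 6 higher and 3 lower, and all 9 signs turned in at least 1 alternative. Clec7a had medians of 4.61 and 5.54 TPM, with no PFF mouse at 11% O2 above the highest at 21% O2, and a log2 fold change of 0.11 (95% interval −0.28 to 0.51, adjusted p = 0.869, 0.541% of genes called in that fit). Averaged over both injections, 6 of the 9 members were higher at 11% O2 (median 0.07), 0 were called against 3.39% of all genes, and 1 had an unadjusted p under 0.05, against 24.5% of all genes. That member was Cd68 at 0.19 (adjusted p = 0.154), while Spp1 was at −0.41 and Clec7a at 0.36 (adjusted p = 0.190, 2.58% of genes called in that fit). The comparisons share groups of mice and are not independent of one another.

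Differences between mice of the same group and batch were related to marker levels. For each of the 42 mice, deviations from the mean of its group and batch were taken for every member and for the mean of 6 marker lists, in log2 CPM before correction. Over the 60 relations, 53 had an adjusted p under 0.05 by Pearson's r and 50 by Spearman's rho, in permutation tests within group and batch (100000 permutations). Only the members were tested in this way. The share among all genes is thus not known, and the counts are not shown to be particular to the members. Tissue composition and depth differ between libraries and enter every one of these values, so the relations describe the libraries and do not separate cell types. Trem2 followed the homeostatic microglia list most closely (Pearson's r 0.96, Spearman's rho 0.95, permutation p = 1e-05 for each, the smallest that these permutations can give). Cd68, Tyrobp and Axl came next, at 0.89, 0.88 and 0.81. Clec7a stood at 0.75 (rho 0.69, permutation p = 6e-05 for each) and Cst7 at 0.72 (rho 0.62). Without the 2 mice farthest from the median of the list, r was 0.95 for Trem2, 0.63 for Clec7a and 0.58 for Cst7.

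Lpl and Spp1 stood apart. Lpl ran against the microglia list (r −0.56, rho −0.59, permutation p = 0.00015 and 0.00024) and −0.55 without the 2 farthest mice, and was the only member with a positive relation to the neuron list (r 0.36). Spp1 had r 0.52 (rho 0.52, permutation p = 0.00587 and 0.00203), which fell to 0.31 without those 2 mice. Apoe and Axl followed the astrocyte list (r 0.87 and 0.89) more closely by value than the microglia list (0.78 and 0.81). The astrocyte and microglia lists themselves had r 0.93, and the microglia list ran against neurons at r −0.68.

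**Figure D5:**
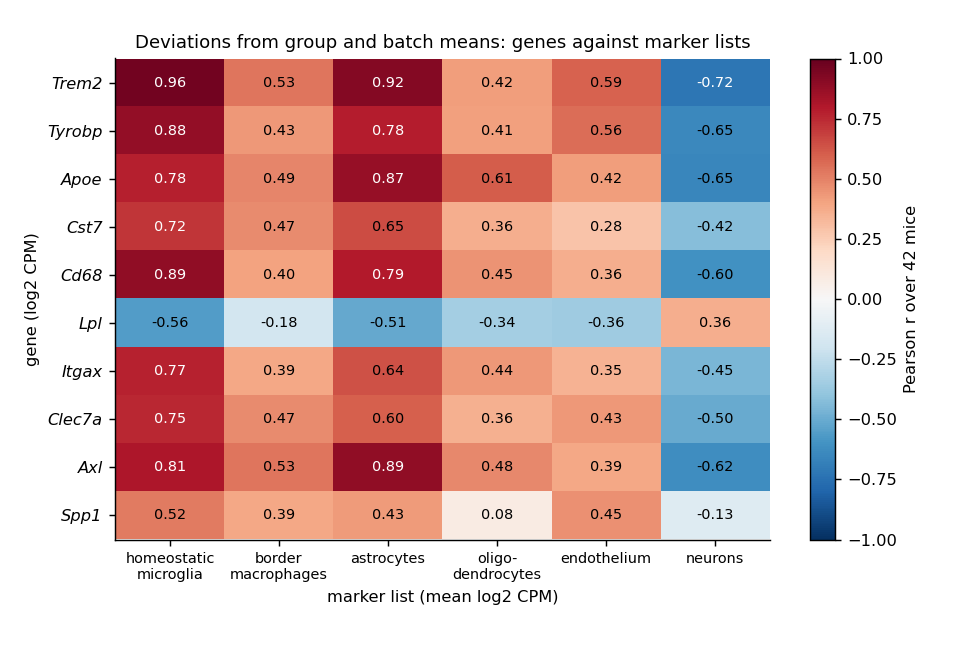
Pearson's r over 42 mice between the deviation of each of the 10 genes (rows) and that of the mean of each marker list (columns) from group and batch means, coloured from −1 to 1. The microglia column is positive for every gene except Lpl (−0.56), and the neuron column is negative for every gene except Lpl (0.36).

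The genes most like each member were found among 14793 others by the same deviations, and are given as a description. Trem2 was closest to C1qc (r 0.97), C1qa and Unc93b1, and Tyrobp to Ly86 (0.94), Ctss and C1qb, of which the C1q genes encode the initiating complement component. Cd68 had Ctsd (0.88) and Mpeg1 (0.87) among its nearest genes, and Cst7 was closest to Mpeg1 (0.78), Fyb and Lyn. Itgax had other members as its nearest genes, Cd68 (0.83) and Clec7a (0.81), followed by Mpeg1. Clec7a was nearest to Cd180 (0.84), Ly86 and Itgax. Apoe was closest to Ppp1r1b (0.95), Cd81 and Cd63, and Axl to Mlc1 (0.94), Laptm5 and Smo, of which Mlc1 is an astrocyte membrane protein. Lpl was nearest to Mc3r (0.78), Plpp4 and Jpt1. Spp1 was nearest to Fbxo40 (0.94), Scn4b and Kcng4, of which Scn4b and Kcng4 encode subunits of neuronal ion channels.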

How the data were processed

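Per the labels and the study's methods, polyadenylated RNA from dissected SN was sequenced with a kit that does not mark strand. The authors aligned reads to mm10 (GRCm38) with STAR 2.7.5a, removed duplicates with Picard 2.21.9 and deposited read counts per gene from featureCounts 2.0.1. They also deposited TPM. For 42 mice they deposited counts and TPM corrected for batch with ComBat-seq, which alters single counts. Clec7a was taken from the deposited uncorrected counts and TPM.

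Members, marker lists and tests were chosen with earlier results of these data known. All 10 members are named, with at most 3 called genes per marker list and comparison and the 3 genes most like each member, of which 1 is not reported here. All 4 groups entered one fit of edgeR 4.0.16 (TMM scaling, filterByExpr, quasi-likelihood test, R 4.3.3) on corrected counts with no batch term, or on uncorrected counts with batch as a covariate for Clec7a. Fold changes are on the log2 scale. The SE is the fold change divided by the root of the F statistic. Log2 CPM used a prior count of 2. Symbols and positions came from the deposited identifiers and GENCODE vM21, in which 54487 of 55385 identifiers matched. Alternatives were DESeq2 1.42.0, limma 3.58.1, other scaling and filters, the 6 mice left out by the authors, batches apart, each mouse left out and a replicate block. ComBat-seq was run again (sva 3.50.0) for Clec7a, with the 4 groups as one covariate, since this came closer to the deposited values than O2 and injection as separate covariates, which the methods name. The edgeR fit was tested on simulated data for PFF at 21% O2. It recovered 86% of genes changed 1.5-fold and 94% of those changed 2-fold. Among genes under 3 times the level of Cst7 it recovered only 2 of 12 and 4 of 8. A gene as low as Cst7 can thus change without being called. Each library is 1 mouse. The study's methods describe a randomized design with matched pairs, but the labels do not name the pairs, so pairing was not modelled.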

Additional observations from a re-analysis of the deposited data

Results flagged for a closer look

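The 2 groups of 10 or fewer mice (monomer and PFF at 11% O2) were examined for each of the 10 genes. In 7 of these 20 sets of values the extreme mouse stood far from its nearest neighbour by the ratio of that gap to the range of the set. Chance gives about 1 in 20 for a single set, but these sets share mice and correlated genes, and the 7 come from 3 mice. PFF replicate 8 at 11% O2 was flagged as the highest mouse for 4 members, with a ratio of 0.467 for Clec7a, 0.632 for Itgax, 0.552 for Trem2 and 0.573 for Tyrobp. The same mouse was also the highest of its group for Cst7 and Cd68, without such a gap. Monomer replicate 3 at 11% O2 was flagged as the lowest for Clec7a (0.533) and Cst7 (0.638), and was also the lowest for Tyrobp without such a gap. Monomer replicate 5 at 11% O2 was the highest for Lpl (0.595).

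The 6 mice left out by the authors were compared, in TPM before correction, with the highest analysed monomer mouse at the same O2 level. Of their 60 values, 21 lay above it, and these come from correlated genes of the same few mice. The share over all genes was not computed, and the left-out PFF mice also differ from monomer mice by injection. Monomer replicate 9 at 11% O2 did so at 5134 TPM for Apoe, 80.8 for Axl, 57.8 for Cd68, 6.91 for Clec7a, 4.23 for Cst7, 2.7 for Itgax, 45.8 for Trem2 and 161.3 for Tyrobp. Monomer replicate 8 at 11% O2 did so at 54.3 TPM for Cd68, 9.37 for Clec7a, 45.6 for Trem2 and 173.5 for Tyrobp. PFF replicate 5 at 11% O2 reached 5119 TPM for Apoe, 94.6 for Axl, 10.1 for Clec7a, 577 for Spp1 and 163.04 for Tyrobp, and PFF replicate 2 reached 8.02 TPM for Lpl. PFF replicate 5 is from batch 2, in which no monomer mouse at 11% O2 was analysed, so it also differs by batch. PFF replicate 2 had 6705 Apoe counts before correction, against 20403 or more in the analysed mice. Total counts on genes fell to 3134594 over all 48 mice. Monomer replicate 10 at 21% O2 reached 5.24 TPM for Clec7a, 396 for Spp1 and 152 for Tyrobp.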

How the results depend on the processing

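Of the values that the text gives one by one, 418 of 443 alternatives for the 9 members in corrected counts and 94 of 106 for Clec7a kept direction and side of the threshold. With members given only by range or count included, 61 of 826 values of the 9 members had the opposite sign, 19 of them for PFF at 11% O2 and 23 for 11% O2 in PFF mice, as did 47 of 2646 with 1 mouse left out. They include Trem2 (4 of 14 alternatives), Tyrobp (4), Apoe (3), Cd68 (3), Lpl (1) and Itgax (1) for PFF at 11% O2, and Trem2 (5 of 15), Itgax (8) and Lpl (3) for 11% O2 in PFF mice. Of 100 counts of members called, 96 stayed at 0. The others were 1 each, namely Cst7 for PFF at 21% O2 with no batch term, and Cd68 for 11% O2 in monomer mice (0.43, adjusted p = 0.0356) and over both injections (0.26, adjusted p = 0.0439) with all 48 mice. Leaving out 1 mouse at a time gave 0 to 1 for 11% O2 in monomer mice, the 1 being Cd68 without monomer replicate 6 at 21% O2 (0.37, adjusted p = 0.0424). For Clec7a and PFF at 21% O2, the log2 fold change was 0.77 with only the groups compared, 1.33 in batch 1 alone (adjusted p = 0.302) and 0.40 in batch 2 alone (adjusted p = 0.455), none past the threshold. It was 0.78 to 0.98 when 1 mouse was left out, called in 42 of 42 fits, and 0.80 (adjusted p = 0.0227) in counts from ComBat-seq run again with Clec7a, chosen after seeing the data. That run had the 4 groups as one covariate and gave 99.7% of the deposited values, against 32.8% with O2 and injection as separate covariates. Averaged over O2, Clec7a failed with no batch term (0.70, adjusted p = 0.0521), in batch 1 alone (0.84) and in that ComBat-seq run (0.58). Leaving out 1 mouse gave 0.55 to 0.69 (adjusted p 0.0253 to 0.0817), and the call was lost without PFF replicates 4, 7, 10 or 12 at 21% O2, PFF replicates 1, 4, 8 or 11 at 11% O2, monomer replicates 6, 7, 9 or 11 at 21% O2 and monomer replicates 5, 10 or 11 at 11% O2. With no batch term Clec7a was also called for 11% O2 in monomer mice (0.75, adjusted p = 0.0316). The count of relations fell from 53 of 60 to 33 of 54 with corrected counts. The median of the 9 members moved by more than their median SE in batch 1 alone (PFF at 21% O2 0.44, at 11% O2 −0.12, 11% O2 in monomer mice 0.32, in PFF mice −0.15, interaction −0.54) and batch 2 alone (PFF at 21% O2 0.03, 11% O2 in PFF mice 0.18). The causes were not tested.

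The values given one by one that reversed had not passed the test. In batch 2 alone the PFF values at 21% O2 were −0.0050 for Trem2, −0.0083 for Tyrobp and −0.023 for Itgax. Spp1 for PFF at 21% O2 was 0.10 and 0.085 with batch as a covariate over 42 and 48 mice, 0.054 with no batch term, 0.31 in batch 1 alone, 0.077, 0.079 and 0.077 with limma (pseudocounts of 1, 0.1, and 1 with a mean of at least 1 TPM), and −0.16 to 0.043 with 1 mouse left out. For PFF at 11% O2, Cst7 was −0.023 and Axl 0.012 in batch 3 alone, Spp1 −0.033 in batch 1 alone, and Axl reached 0.0074 with 1 mouse left out (lowest −0.057). Lpl for 11% O2 in monomer mice was 0.12 with no batch term and −0.33 to 0.039 with 1 mouse left out. For 11% O2 in PFF mice, Clec7a was −0.10 in batch 1 alone, −0.21 in batch 3 alone and −0.060 to 0.23 with 1 mouse left out, Cst7 was −0.15 and −0.62 in these batches, and Spp1 was 0.040 over 48 mice. The Spp1 interaction in batch 1 alone was −0.34.

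With a replicate block Clec7a was 0.80 (adjusted p = 0.0332) for PFF at 21% O2 and 0.61 (adjusted p = 0.0812) averaged over O2. Mice of different groups with the same number had correlations of −0.40 to 0.56 over 54 pairs, 21 of them over 0.1, so the numbers were not taken as pairs. Fits of only the groups compared give no interaction or average, and no batch held more than 4 mice of a group except monomer mice in batches 2 and 3. Low counts limit Cst7, Itgax, Clec7a and Lpl most.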
